A study of Cricetiscus sungorus with 216 samples.

Results

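The pituitary gland of Djungarian hamsters (Siberian hamsters in the labels) late in a short photoperiod (SP) was compared with that of hamsters in a long photoperiod (LP). The libraries were chosen by their labels, the 6 named LD (here LP) and the 12 named 28wk SD or 32wk SD (here 28 and 32 weeks SP, together late SP), and they are 18 of the 54 pituitary gland libraries and of the 216 libraries of the series, which also sampled the mediobasal hypothalamus and the hypothalamic paraventricular and dorsomedial nuclei. The hamsters were adult males from a colony, fed freely, with no genetic change or drug. Their age is given as 3 to 8 months for the colony, and the age at sampling is not stated for either group. LP hamsters had 16 h of light a day and SP hamsters 8 h, the latter for 28 or 32 weeks. Whole pituitary dissections were sequenced, which hold every cell type of the gland, and less RNA per cell and fewer cells of a type cannot be told apart in them. The table holds 79349 isoforms under 22482 gene symbols. Isoform counts were summed for each symbol, and the 4759 symbols with a count in at least 9 of the 18 libraries were tested.

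The anterior pituitary gland is built of cells that each make 1 kind of hormone. Somatotrophs make growth hormone (Gh), lactotrophs prolactin (Prl), corticotrophs and melanotrophs the precursor of ACTH and MSH (Pomc), gonadotrophs LH and FSH (Lhb and Fshb), and thyrotrophs TSH (Tshb), and Cga encodes the alpha subunit that LH, FSH and TSH share. In seasonal mammals, melatonin acts on the pars tuberalis of the gland, prolactin secretion is low in SP, and hamsters kept long enough in SP return to a summer state without any change of light. The comparison of late SP with LP addresses how far the transcripts of the gland in that spontaneous recovery differ from those of hamsters that never left LP.

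Depth was low. Total counts of a library lay between 40520 and 230630 in LP (median 75850). They lay between 50729 and 523544 at 28 weeks and between 66167 and 291746 at 32 weeks (median of late SP 97447). Late SP libraries were deeper by 0.55 on the log2 scale, within the spread of the libraries (exact permutation test, 2-sided, p = 0.269). This does not show equal depth, on which the number of libraries with a count of a rare transcript depends. Between 3103 and 11622 gene symbols were read in a library, and 830 tested genes were read in all 18. The 6 symbols that took more than 5% of the summed counts of any library (Lars2, Gm46178, LOC118567838, Gh, Gm15564 and LOC118568007) together held 34.4% to 67.3% of these counts. Their joint share did not differ detectably between the groups (exact permutation p = 0.701). The hormones that define the tissue were present throughout, and the 7 hormone transcripts summed to between 44114 and 141820 CPM (counts scaled by the library size) in each library. Of 16 hypothalamic markers, 7 had no count (Gad2, Slc17a7, Rbfox3, Camk2a, Mog, Sst and Agrp) and the list summed to between 17.3 and 298 CPM. Blood cell markers were present in every library at 202 to 801 CPM.

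No transcript passed the test in late SP. With edgeR's quasi-likelihood test and a false discovery rate (FDR) below 0.1, 0 of 4759 genes (0%) were called in late SP against LP, 0 at 28 weeks, 0 at 32 weeks and 0 between 32 and 28 weeks. DESeq2 also called 0 in each of these comparisons. An unadjusted p below 0.05 was reached by 166 genes (3.49% of those tested) in late SP against LP, 115 higher and 51 lower, and by 157, 143 and 119 genes in the other comparisons in the order given. In DESeq2 the numbers were 152, 140, 139 and 135. The share of higher genes among the 166 rested on the scaling, since size factors of DESeq2 gave 82 higher and 92 lower and library totals 75 higher and 74 lower. The median log2 fold change of all tested genes was 0.12 with TMM, -0.03 with DESeq2's size factors and 0.02 with library totals, and all fold changes below are on the TMM scale. No gene (0%) had all 12 late SP libraries above, or all below, the 6 LP libraries.

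The absence of calls does not show that the transcriptomes were alike, since few genes were measured precisely. The 95% interval of the log2 fold change lay within 1 of 0 on both sides, a change of less than 2-fold either way, for 453 of 4759 genes (9.52%). Among the 821 genes with a mean of at least 100 CPM it did so for 341 (41.5%), and among the 27 with at least 1000 for 17 (63.0%). The median distance from the estimate to the end of its interval was 1.60 over all tested genes.

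**Figure D1:**
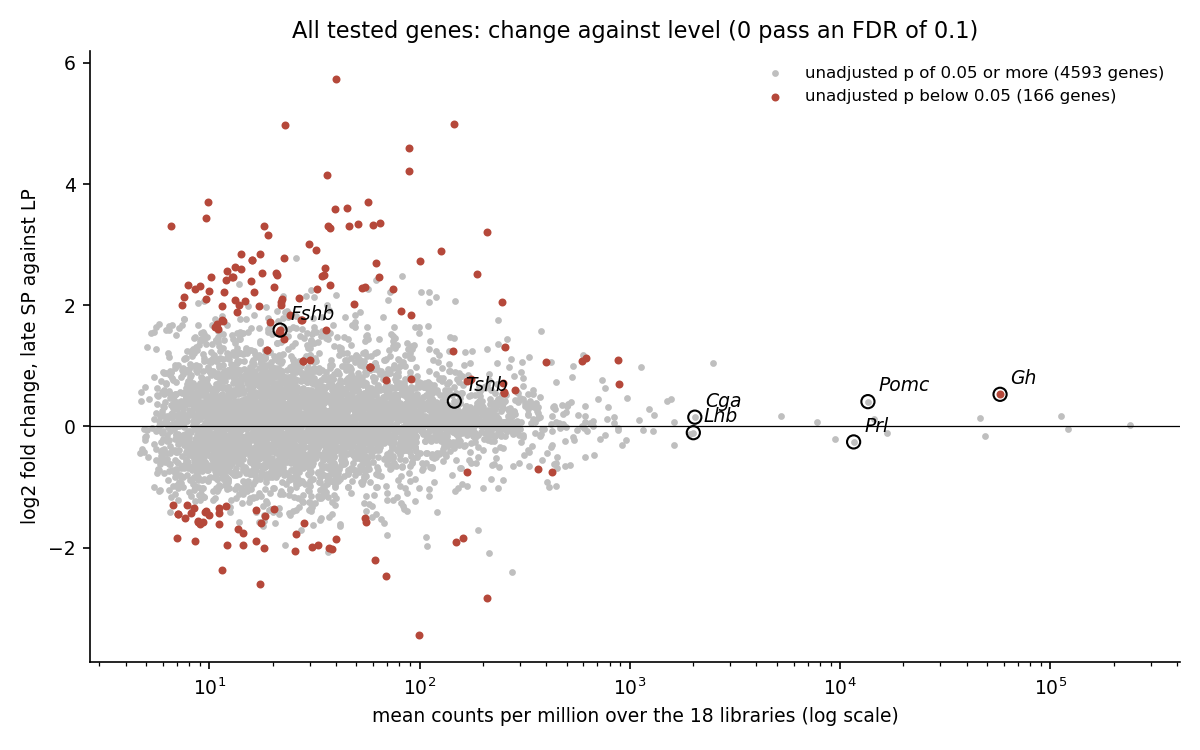
Log2 fold change of each of the 4759 tested genes in late SP (12 libraries) against LP (6 libraries), plotted against its mean CPM on a log axis. The 166 genes with an unadjusted p below 0.05 are in red, 0 passed an FDR of 0.1, and the scatter narrows toward abundant genes.

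Gh was the most abundant hormone transcript. It had a lowest, median and highest value of 28450, 47442 and 59498 CPM in LP, 45392, 74937 and 98112 at 28 weeks and 38694, 61924 and 66257 at 32 weeks. In 9 of 12 late SP libraries Gh lay above the highest LP library, and the 3 others lay within the LP range. The means were 44140 ± 13022 (SD, n = 6) in LP and 64360 ± 17845 (SD, n = 12) in late SP, a log2 fold change of 0.53 (SE 0.24, adjusted p = 1.00, edgeR quasi-likelihood test). Taken alone, its unadjusted p was 0.0451 in edgeR, and an exact permutation test of mean log2 CPM, 2-sided over all divisions of the 18 libraries, gave p = 0.0218. With library totals in place of TMM the permutation p was 0.113. The estimate was 0.73 (SE 0.28) at 28 weeks and 0.33 (SE 0.28) at 32 weeks, and the difference between these weeks (-0.40, SE 0.28) was not beyond its error.

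Prl, the hormone of lactotrophs, had a lowest, median and highest value of 7616, 14100 and 16439 CPM in LP. At 28 weeks these were 6373, 9980 and 16192 CPM, and at 32 weeks 6853, 11926 and 15018. The groups overlapped almost wholly, although 10 of 12 late SP libraries lay below the LP median. Prl was at 12993 ± 3740 (SD, n = 6) in LP and 10889 ± 3144 (SD, n = 12) in late SP, which is 0.84 of the LP level with a 95% interval of 0.58 to 1.21, and the exact permutation test gave p = 0.262. In the same table, scaled over all 54 pituitary gland libraries, Prl lay between 330 and 742 CPM at 8 weeks SP, between 541 and 2307 at 20 weeks and between 4200 and 10534 at 24 weeks. The lowest of the 12 late SP libraries, 6507 on this scale, was thus above every library of the 8 and 20 week groups. Gh showed no such trough, with group medians between 48215 (LP) and 76093 (28 weeks).

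The proportion of Prl to Gh within a library does not depend on the scaling between libraries. All 10 ratios between Prl, Gh, Pomc, Lhb and Cga were computed, a choice made after the levels had been seen. In LP, the lowest, median and highest library had 0.146, 0.321 and 0.525 Prl counts per Gh count. The values were 0.104, 0.135 and 0.191 at 28 weeks and 0.133, 0.193 and 0.342 at 32 weeks. Of the 12 late SP libraries, 11 lay below the LP median and 5 below the lowest LP library. The ratio was 42.7% lower in late SP (-0.80 on the log2 scale, from -1.76 ± 0.64 (SD, n = 6) to -2.57 ± 0.47 (SD, n = 12), exact permutation p = 0.00803, adjusted over the 10 ratios p = 0.0803). The unadjusted p stayed between 0.00145 and 0.0294 when any 1 library was left out. Prl to Cga (-0.45, p = 0.0372) and Gh to Lhb (0.67, p = 0.0273) had an adjusted p of 0.124 each by the same exact permutation test, and their unadjusted p rose to 0.117 without LP replicate 2 and to 0.0800 without LP replicate 3. The other 7 ratios had p of 0.111 or more.

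**Figure D2:**
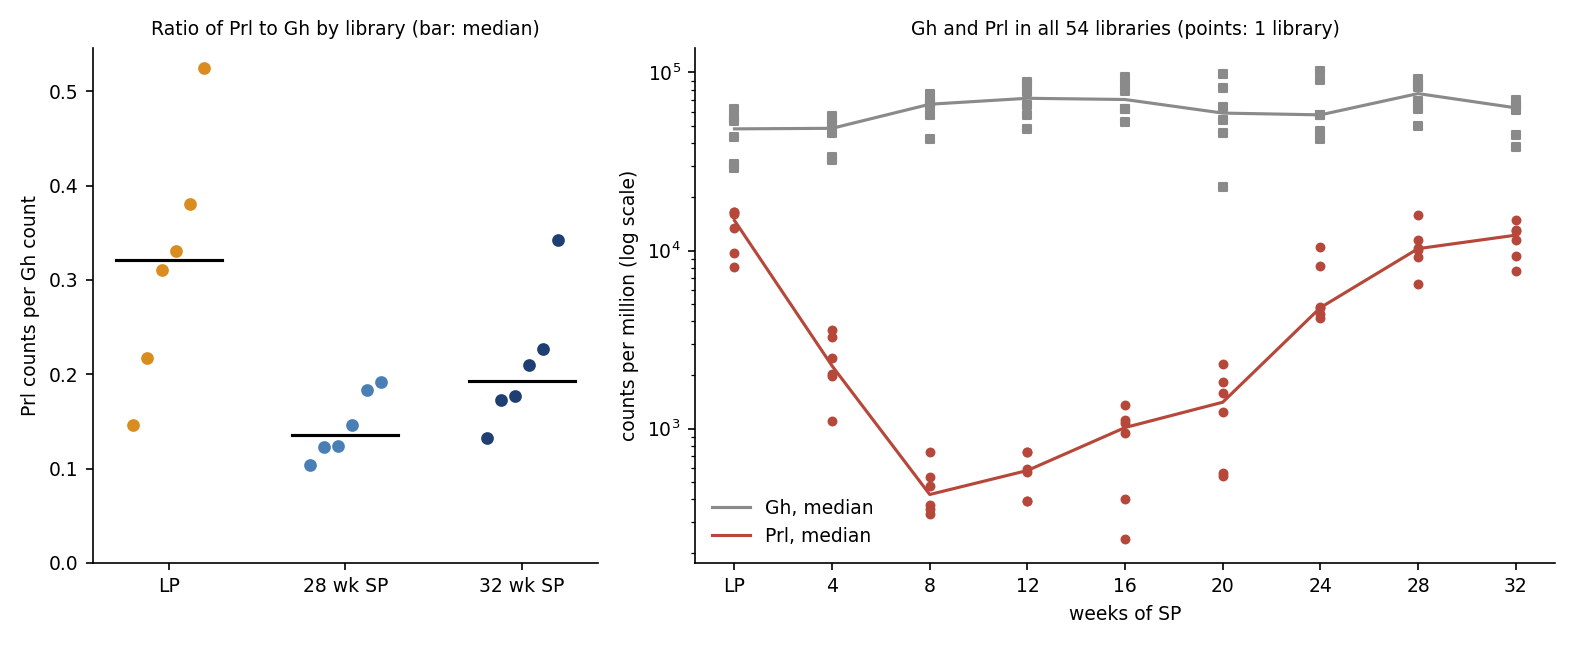
Left, Prl counts per Gh count in each library of LP, 28 weeks and 32 weeks SP, with a bar at the median, 0.321 in LP, 0.135 at 28 weeks and 0.193 at 32 weeks. Right, Gh and Prl in CPM on a log axis in all 54 pituitary gland libraries by weeks of SP, with lines through the group medians, where Prl is lowest from 8 to 20 weeks and overlaps the LP range at 28 and 32 weeks.

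Pomc, which corticotrophs and melanotrophs process to ACTH and MSH, had a lowest, median and highest value of 7192, 9606 and 17860 CPM in LP, 5669, 12283 and 20569 at 28 weeks and 9229, 17189 and 27440 at 32 weeks. The highest LP library was passed by 4 of 12 late SP libraries. The log2 fold change was 0.41 (SE 0.29) over late SP and 0.67 (SE 0.33) at 32 weeks alone, with an exact permutation p of 0.191 for late SP. The 2 weeks differed by 0.52 (SE 0.33), within error.

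Among the gonadotrophin subunits, Lhb was at 2096 ± 617 (SD, n = 6) CPM in LP and 1957 ± 708 (SD, n = 12) in late SP. Its log2 fold change was -0.10 (95% interval -0.67 to 0.47), and without LP replicate 5 it was 0.03. Cga was at 1894 ± 758 (SD, n = 6) and 2106 ± 478 (SD, n = 12), a log2 fold change of 0.15 (95% interval -0.37 to 0.67) that was -0.02 with DESeq2's size factors. Both groups overlapped over most of their range for each of these genes. Lhb and Cga were thereby among the better bounded transcripts, with changes of more than 2-fold lying outside their intervals.

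Fshb, the subunit that makes FSH, was read far less. Its counts were 2, 2, 0, 1, 0 and 0 in the 6 LP libraries, 3, 8, 4, 5, 0 and 1 at 28 weeks and 3, 2, 16, 2, 1 and 1 at 32 weeks. It was thus read in 3 of 6 LP and 11 of 12 late SP libraries, the highest LP library being passed by 6 of 12 late SP libraries in CPM. The log2 fold change was 1.59 (SE 0.79, edgeR, adjusted p = 1.00), with an unadjusted p of 0.0328 and an exact permutation p of 0.0202. At 0 to 16 counts a library, the depth limits what these values can show.

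Tshb, the beta subunit of TSH, had summed counts of 0, 21, 0, 0, 1 and 28 in LP, 14, 63, 42, 7, 6 and 7 at 28 weeks and 0, 14, 63, 0, 7 and 28 at 32 weeks. All 6 libraries of 28 weeks held Tshb counts, against 3 of 6 in LP and 4 of 6 at 32 weeks. The table lists 7 isoforms of it, which makes these sums larger than the number of reads. Its log2 fold change of 0.42 (SE 0.98) depended on LP replicate 6, which alone had 625 CPM, and was 2.35 without it. The exact permutation test gave p = 0.155.

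**Figure D3:**
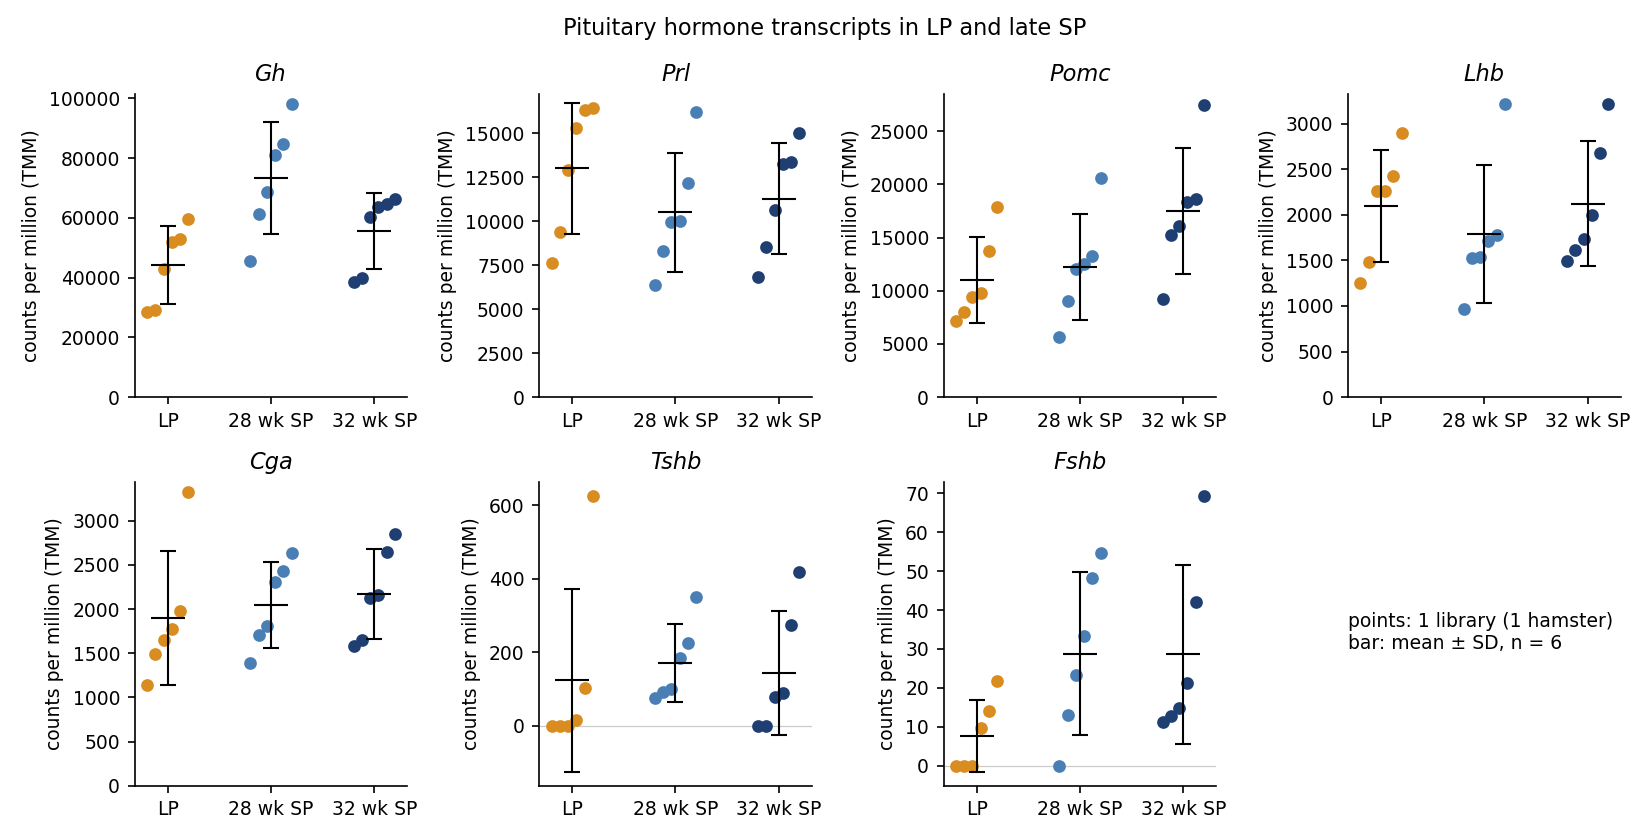
CPM (TMM) of the 7 pituitary hormone transcripts in each library of LP, 28 weeks and 32 weeks SP (points, 6 libraries a group), with bars at the mean and SD. Gh lies above the LP range in 9 of 12 late SP libraries, Prl, Lhb and Cga overlap between the groups, and Fshb and Tshb are at 0 in several LP libraries.

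The other genes of these cells were seldom deep enough to compare. Of 25 regulators of lactotrophs and somatotrophs 5 were tested, and none had a p below 0.05 (0 of 5, median log2 fold change 0.29). Pou1f1, the transcription factor of the somatotroph and lactotroph lineage, was at 18.1 ± 13.1 (SD, n = 6) CPM in LP and 23.8 ± 17.97 (SD, n = 12) in late SP. Drd2, the dopamine receptor that restrains prolactin release, was at 20.9 ± 28.4 and 13.9 ± 16.1. Ghrhr, the receptor for growth hormone releasing hormone, was at 11.9 ± 11.8 and 12.1 ± 11.3. Of 17 gonadotroph genes 5 were tested, with a median of 0.07 and none with a p below 0.05. Of 11 genes of corticotrophs and melanotrophs 3 were tested, with a median of 0.37, and of these Scg2, a granin of secretory granules, had the narrowest error (log2 fold change 0.29, SE 0.29). The spread between libraries covered the difference for each of these genes.

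Of 16 genes of the pars tuberalis and of thyroid hormone action, 6 were tested, and Tac1, the precursor of substance P and neurokinin A, had the smallest p of these (log2 fold change -1.57, SE 0.91, unadjusted p 0.0207, adjusted p = 1.00 in edgeR). Tac1 was at 15.9 ± 13.8 CPM in LP and 6.08 ± 8.64 in late SP, with at most 3 counts in an LP library and 6 in a late SP library. Thrb, a thyroid hormone receptor, was at 75.7 ± 110 and 155 ± 200, and the circadian factor Tef at 123 ± 126 and 110 ± 99.7. In the list of 22 clock genes 10 were tested and 0 had a p below 0.05, with a median log2 fold change of -0.15. Per2, a repressor of the clock, had the smallest p of these (29.02 ± 33.2 CPM in LP and 14.3 ± 19.7 in late SP, log2 fold change -1.38).

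The secretory machinery was better covered. Of 30 granins and prohormone processing genes 22 were tested, 12 with a positive and 10 with a negative log2 fold change and a median of 0.07. Snap25, a SNARE protein of exocytosis, was the 1 with a p below 0.05 (123 ± 104 in LP and 320 ± 177 in late SP, log2 fold change 1.32, SE 0.58, adjusted p = 1.00 in edgeR). The granin Chgb was at 577 ± 138 and 554 ± 101, and Resp18, a granule protein, at 1176 ± 322 and 1135 ± 190. Of 40 genes for folding and translocation in the endoplasmic reticulum 37 were tested, 19 positive and 18 negative, with a median of 0.06. The chaperone Hspa5 was at 271 ± 107 and 284 ± 118 CPM, and Srp14, a subunit of the signal recognition particle, had the only p below 0.05 (log2 fold change -1.36, SE 0.58). Srp14 counts were 2, 2, 1, 2, 7 and 1 in LP and 0 to 4 in late SP. LP replicate 5, with the 7 counts, stood apart at 111.5 CPM.

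Ribosomal proteins gave the tightest bounds. All 79 cytosolic ribosomal protein genes were tested, and the interval of 62 of them lay within a 2-fold change either way. Their median log2 fold change was 0.07, with 54 positive and 25 negative. Rpl12, of the large subunit, was among those with an unadjusted p below 0.05 (0.57, SE 0.26). Their sum was 20024 ± 3386 (SD, n = 6) CPM of the library total in LP and 20004 ± 2567 (SD, n = 12) in late SP. Of 86 nuclear-encoded genes of oxidative phosphorylation 67 were tested (some listed under newer symbols that the table does not use). Of these, 4 had a p below 0.05, all higher, where 3.49% of all tested genes had such a p. They were Atp5j (623 ± 246 in LP and 1013 ± 267 in late SP, log2 fold change 0.70, SE 0.31) and Atp5g2 (32.96 ± 20.3 and 71.0 ± 32.1), of the ATP synthase, and Ndufa12 (7.25 ± 12.2 and 37.1 ± 25.6) and Ndufb3, of complex I. Ndufa12 counts were 0, 6, 0, 1, 0 and 0 in LP and 0 to 12 in late SP. None of the 4 passed the adjustment, and the median of the list, 0.10, was close to the 0.12 of all tested genes. Ndufb3 had no count in any LP library, so it entered the test through its late SP counts alone and could only be higher.

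Of 24 proliferation genes 6 were tested, with a median log2 fold change of -0.45. Mki67, Ccnb1, Ccna2 and Birc5 had no count in any library. Ccnd1, the cyclin that drives entry into S phase, had the smallest p among all genes that were lower in late SP. Its counts were 4, 4, 2, 1, 2 and 0 in LP, 0, 4, 2, 1, 0 and 1 at 28 weeks and 0, 1, 0, 0, 1 and 0 at 32 weeks. Most LP libraries held a few counts and most of those at 32 weeks none (log2 fold change -1.96, SE 0.72, unadjusted p 0.00270, adjusted p = 1.00 in edgeR). Of 29 immediate early genes 5 were tested and Btg2, an antiproliferative factor, reached a p below 0.05 (4.16 ± 6.53 in LP and 14.4 ± 9.58 in late SP). Btg2 counts were 1, 0, 0, 1, 0 and 0 in LP and 0 to 5 in late SP. Of 15 genes that respond to glucocorticoids 3 were tested (median 0.54), and of 14 insulin-like growth factors and their binding proteins 6 (median -0.02), none of them with a p below 0.05.

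Markers of other cells were few. Of 13 stem and folliculostellate cell markers 5 were tested, with Sox2 at 6.94 ± 12.8 and 7.76 ± 7.76 CPM. For the posterior lobe (10 markers), hypothalamus (16), fibroblasts (11) and leukocytes (17) 1 marker each was tested, Vim, Npy, Mgp and Cd74, and for endothelial cells (14), neutrophils (7) and skeletal muscle (12) none. Summed over the whole list, leukocyte markers lay between 0 and 59.6 CPM in LP and 0 and 128 in late SP, with Ptprc and Cd3e at 0 throughout, and muscle markers between 0 and 25.2 and between 0 and 199. Erythroid transcripts, which come from blood in the gland, summed to 337 ± 96.3 (SD, n = 6) in LP and 465 ± 185 (SD, n = 12) in late SP, with a list median log2 fold change of 0.51 over 4 globin symbols. Hba-a1 and Hba-a2, like Hbb-bs and Hbb-bt, are near-identical copies, and the last pair held the same values in every library. The 5 tested genes of mitochondrial DNA had a median of 0.02.

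**Figure D4:**
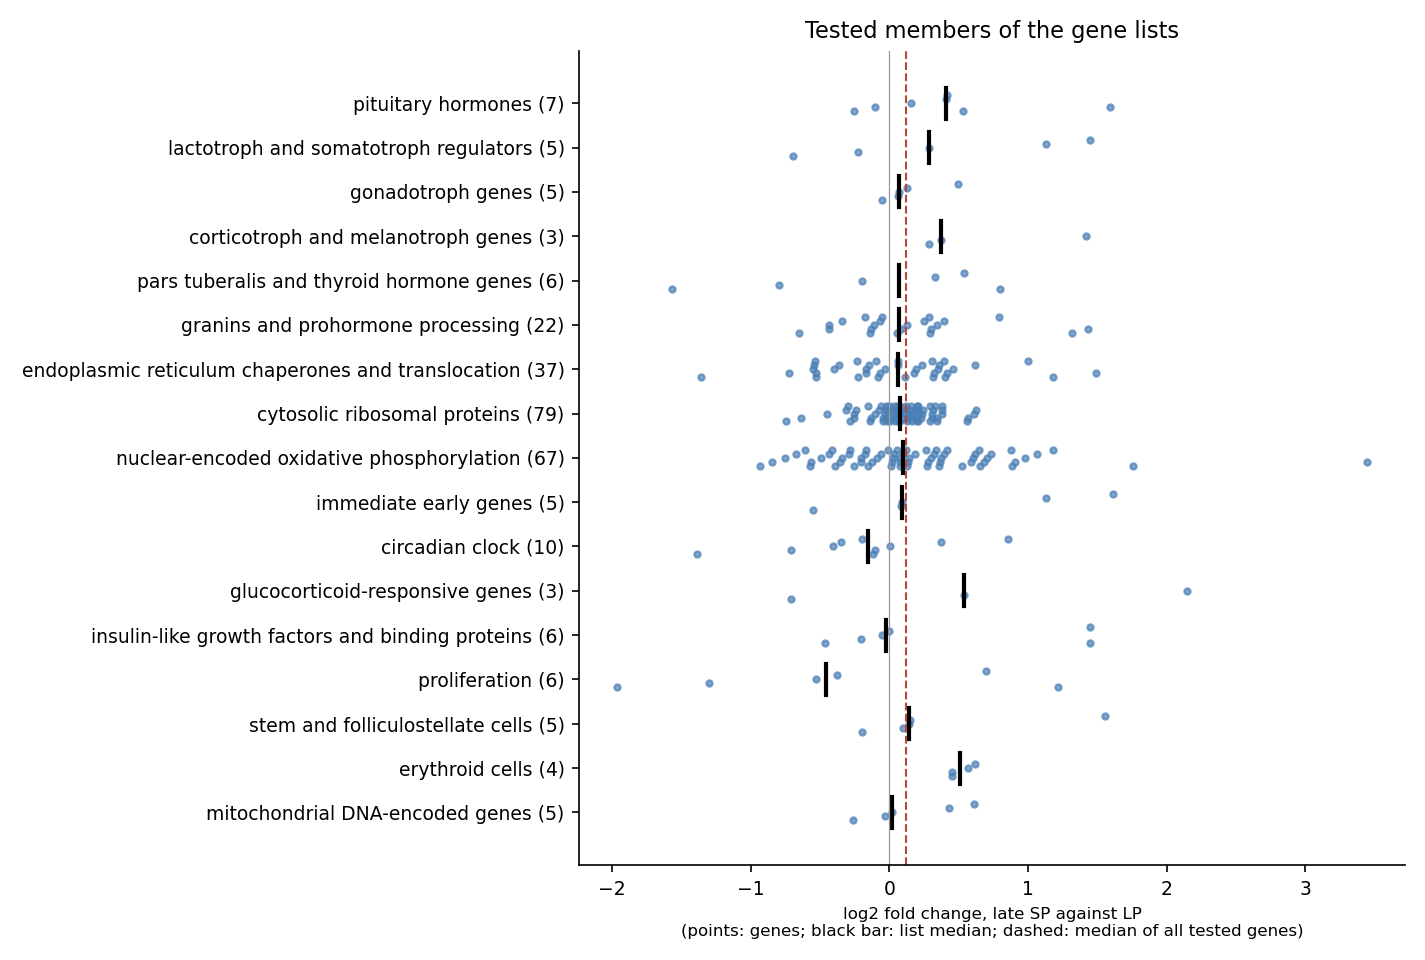
Log2 fold change in late SP against LP of every tested member of each gene list (points, number of genes in brackets), with a black bar at the median of the list and a dashed line at 0.12, the median of all tested genes. Ribosomal protein genes cluster around their median of 0.07, lists of few or low genes spread widely, and the point beyond 3 is Ndufb3, whose estimate has no meaning as a size because no LP library held a count.

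The genes with the smallest p mostly held few counts in a library. The 10 with the smallest p among higher genes (Rabep1, Asph, Pan3, Ahi1, 1110008P14Rik, Ccnc, Gm46761, Meis2, Ndufs1 and Phc1) had unadjusted p between 0.000980 and 0.00673, at most 3 counts in any LP library, and counts in 8 to 11 of the 12 late SP libraries. Of these, 8 have 5 or more isoforms in the table, so that their summed counts are not numbers of reads. Rabep1, an effector of endosomal Rab5, had no count in the 6 LP libraries and was read in 9 of 12 late SP libraries. Asph and 1110008P14Rik also had no count in LP. Rabep1, Asph and 1110008P14Rik therefore entered the test through their late SP counts alone and could only be higher, and no size is given for them. By its highest isoform, Asph was read in 4 of 12 late SP libraries, with at most 2 counts. Of all 4759 tested genes, 5 had no count in LP and 0 had none in late SP, since 6 LP libraries alone cannot meet the filter of 9. Ahi1, a protein of the ciliary transition zone, was at 113.4 ± 42.3 CPM at 28 weeks, where all 6 libraries held it, and at 22.9 ± 35.9 at 32 weeks, where 2 did. In LP, 1 library held 3 counts of Ahi1.

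The 10 with the smallest p among lower genes (Ccnd1, Napg, Gpr180, Psmd9, Metrn, Rgs8, Fbxo3, Fkbp8, Snf8 and Cct2) had unadjusted p between 0.00270 and 0.0130. Apart from Fkbp8, no LP library held more than 14 counts of any of them. Fkbp8, an immunophilin of the mitochondrial outer membrane, was the most abundant of the 10, with 10 to 32 counts in each LP library. It was read in 3 of 6 libraries at 28 weeks and 5 of 6 at 32 weeks. Fkbp8 was at 296 ± 133 CPM in LP, 55.3 ± 71.2 at 28 weeks and 95.5 ± 64.5 at 32 weeks (SD, n = 6 each), with a log2 fold change of -1.91 (SE 0.70, adjusted p = 1.00 in edgeR) and of -1.22 by its highest isoform. Cct2, a subunit of the cytosolic chaperonin, was at 96.6 ± 65.5, 42.4 ± 14.6 and 25.2 ± 24.99 in the same order.

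A different way of reading the table gave a few calls. Isoforms of a gene often hold identical values, and the sum over isoforms was 1.86 times the count of the highest isoform over the 18 libraries. When each gene was represented by its highest isoform, 4315 genes were tested and 5 (0.116%) passed an FDR of 0.1 in late SP against LP, all higher, and 5 at 28 weeks, with 0 at 32 weeks and 0 between 32 and 28 weeks. The same 5 genes passed in late SP and at 28 weeks. They were Bc1, a small noncoding RNA best known from neurons, Reg3g, a secreted antimicrobial lectin, Gm33937, Lrrc17, a secreted leucine-rich repeat protein, and Akap5, an anchor of protein kinase A. The common biological coefficient of variation was 0.292 with the highest isoform and 0.776 with the sum.

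Bc1 had a lowest, median and highest value of 169, 479 and 1281 CPM in LP, 717, 1230 and 2778 at 28 weeks and 528, 1133 and 3006 at 32 weeks. The ranges overlapped, with 4 of 12 late SP libraries above the highest LP library. Its log2 fold change was 1.11 (SE 0.23, adjusted p = 0.00694 in edgeR), and an exact permutation test over the libraries gave p = 0.0123. From the sums over isoforms the estimate was about the same size, 1.13 (SE 0.44), with an adjusted p of 1.00 in edgeR. The highest Bc1 of each group stood in its deepest library, LP replicate 2, 28 weeks replicate 2 and 32 weeks replicate 3, whose totals were 230630, 523544 and 291746 counts, and with the log2 library total as a covariate its log2 fold change was 0.79 (adjusted p = 0.300 in edgeR). Of the 5 genes only Reg3g passed with that covariate (log2 fold change 3.10, adjusted p = 0.0600 in edgeR).

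Gm33937 (log2 fold change 1.09, SE 0.24, adjusted p = 0.00790), Lrrc17 (1.06, SE 0.24, adjusted p = 0.0130) and Akap5 (1.01, SE 0.25, adjusted p = 0.0470, all from edgeR) moved with Bc1 from library to library. There were between 0.628 and 0.875 Gm33937 counts, between 0.511 and 0.833 Lrrc17 counts and between 0.300 and 0.833 Akap5 counts per Bc1 count in the 18 libraries. Whether these symbols share reads with Bc1 was not tested, so the 4 may not be separate observations. Reg3g had counts of 0, 0, 1, 0, 1 and 0 in LP, 0, 29, 8, 5, 0 and 1 at 28 weeks and 8, 5, 13, 0, 6 and 1 at 32 weeks. It was read in 2 of 6 LP libraries, with 1 count each, and 9 of 12 late SP libraries, 7 of which lay above the highest LP library. Its log2 fold change was 3.31 (SE 1.12, adjusted p = 0.00694 in edgeR) and the exact permutation p was 0.0342. The 9 late SP libraries alone met the filter of 9 libraries, which the 6 LP libraries alone could not. Reg3g thus entered the test through the group where it was higher, a limit shared by every setting that keeps this filter.

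These calls did not hold under every setting. Without LP replicate 4, 0 of the 5 passed, without LP replicate 5 or 32 weeks replicate 3 only Reg3g did, without LP replicate 6 Bc1, Reg3g and Gm33937 did, and without 28 weeks replicate 2 Bc1 and Gm33937 did. Library totals in place of TMM and DESeq2's Wald test called 0 (70 genes had an unadjusted p below 0.05 in the latter). Over the alternatives tried, Bc1 passed in 17 of 26, Reg3g in 20 of 25, Gm33937 in 17, Lrrc17 in 15 and Akap5 in 13 of 26, with adjusted p reaching 0.999 for each. Only the highest isoform of each gene gave any call in this comparison among tests with the filter of 9 libraries.

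**Figure D5:**
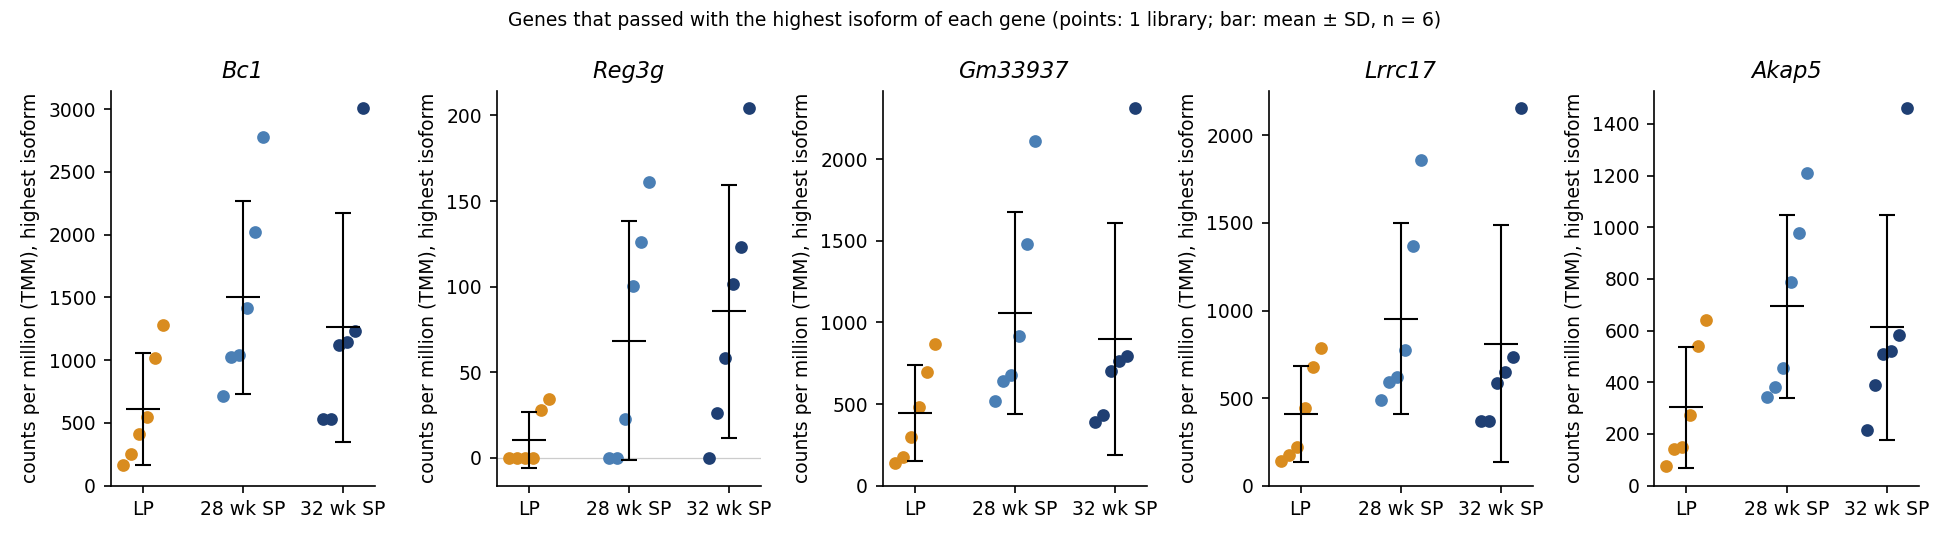
CPM (TMM) of the highest isoform of Bc1, Reg3g, Gm33937, Lrrc17 and Akap5 in each library of LP, 28 weeks and 32 weeks SP (points), with the mean and SD of the 6 libraries of a group. Bc1, Gm33937, Lrrc17 and Akap5 show a similar order of libraries, with the highest at 32 weeks standing apart, and Reg3g is at 0 in 4 of 6 LP libraries.

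The 10 most abundant symbols of the gland included Gh, Pomc and Prl. The other 7 (Lars2, Gm46178, LOC118567838, LOC118568007, Gm15564, AY036118 and LOC118568312) had log2 fold changes between -0.15 and 0.16 and exact permutation p of 0.598 or more. Lars2, which names a mitochondrial leucyl-tRNA synthetase, alone held between 8.05% and 29.5% of the counts of a library, summed over isoforms. Since isoforms often hold identical values, this is not a share of reads. Whether the reads under these 7 symbols came from the genes so named was not tested.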

How the data were processed

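RNA of pituitary dissections (6 LP, 6 hamsters at 28 and 6 at 32 weeks SP) was sequenced on the nanopore platform. The labels give a PCR-cDNA kit and the methods of the study a direct cDNA kit. The authors aligned reads with Minimap2 to the mouse genome and estimated isoform counts with Salmon, and the deposited values are expected counts without normalization, 97.7% of those above 0 being whole (to within 1e-06). Duplicate molecules cannot be told apart. All names are those of mouse symbols.

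Counts were summed over the isoforms of a symbol and rounded, and genes read in at least 9 of 18 libraries were tested by a quasi-likelihood test (edgeR 4.0.16 with its legacy setting, TMM, R 4.3.3), with the Benjamini-Hochberg FDR below 0.1. Late SP is the mean of both SP groups. Standard errors came from the fitted variances, and 95% intervals from these. Single genes and ratios were compared by exact permutation, on both sides, of mean log2 CPM (prior count 2) or of log2 ratios (0.5 counts added). The members, the gene lists and the comparisons were chosen with earlier results of these data known. Named genes are the 7 hormones, the 10 with the smallest p in each direction, the 10 most abundant, and members of the lists. Alternatives included DESeq2 1.42.0, other scalings, filters, the highest isoform and leaving out each library. Precision is limited, at 40520 to 523544 summed counts a library. The common biological coefficient of variation was larger with summed isoforms (0.776) than with the highest isoform (0.292). Sequences and coordinates are not reported because no genome of the build was used here. Values of 2 single genes are not reported here.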

Additional observations from a re-analysis of the deposited data

Results flagged for a closer look

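Among 180 groups of 6 libraries, 29 had a highest or lowest library whose gap to the next, divided by the range of the group, was above Dixon's 95% critical value. For independent and normally distributed values, about 9 would be. CPM are bounded at 0 and several of these genes move together, so the 29 cannot be read as an excess over 9. In each of them it was the highest library that stood apart, and many hold genes with 0 to a few counts. Total counts gave 0.796 in LP and 0.892 at 28 weeks, both from replicate 2. Among hormones, the gap was 0.637 for Lhb at 28 weeks and 0.835 for Tshb in LP, and among ratios 0.758 for Prl to Lhb at 32 weeks and 0.681 for Pomc to Lhb at 28 weeks. At 32 weeks it was 0.716 for Bc1, 0.792 for Gm33937, 0.797 for Lrrc17 and 0.707 for Akap5, in each case from replicate 3. The abundant LOC118568312 gave 0.64 in LP, 0.795 at 28 weeks and 0.798 at 32 weeks.

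Among the genes with the smallest p, Pan3, Ahi1, Gm46761 and Phc1 gave 1 in LP, where only 1 library held a count, as did Rgs8 at 32 weeks. Other gaps in LP were 0.653 for Ndufs1, 0.699 for Napg and 0.807 for Rgs8. At 28 weeks they were 0.76 for Asph, 0.777 for Meis2, 0.807 for Ndufs1, 0.79 for Phc1, 0.883 for Napg, 0.777 for Metrn and 0.65 for Fbxo3, and at 32 weeks 0.6251 for Pan3.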

How the results depend on the processing

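In late SP against LP, 0 genes were called with DESeq2's size factors or Wald test, library totals, filterByExpr, the method of edgeR 4, all 54 libraries in the fit, 28 and 32 weeks as 1 group, depth as a covariate, a replicate block, and without each library in turn (0 to 0). With no filter on low counts 29 were called there (26 lower) and 1 between 32 and 28 weeks (Map4k4). Of the 29, 27 were read in fewer than 9 libraries and 22 had at least 50% of their counts in 1 library. The highest isoform of each gene gave 5, and 5 at 28 weeks. With the highest isoform, edgeR 4 and no filter gave 1 each, DESeq2's size factors 7, depth as a covariate 2 (1 of them lower), and library totals, filterByExpr (408 genes) and DESeq2's Wald test 0, and leaving out a library gave 0 to 6. The replicate block left 5 in late SP and 5 at 28 weeks, and gave 3 at 32 weeks (Bc1, Gm33937 and Reg3g, all higher), where 0 passed without it. Same-numbered libraries correlated with r of -0.017 to 0.297 (18 pairs, 5 over 0.1), and 14 of 18 libraries correlated best with their own number. The latter is a hint from the data that libraries of a number share something. Among the most abundant symbols, AY036118 and LOC118568312 were highest in replicate 6 of each group. AY036118 was at 37092, 29995 and 48057 CPM in replicate 6 (LP, 28 and 32 weeks), and at 5260, 5773 and 5578 in replicate 4. Gh was highest in LP replicate 4, 28 weeks replicate 3 and 32 weeks replicate 2. It was lowest in replicate 6 of each group (28450, 45392 and 38694 CPM in LP, 28 and 32 weeks). Prl was lowest in replicate 1 of each group (7616, 6373 and 6853 CPM in the same order). The labels name no such link and not every pair was over 0.1, so the reported tests, permutations included, do not use the numbers. With the replicate block, Gh had a log2 fold change of 0.52 (unadjusted p = 0.0155) and Prl of -0.26 (unadjusted p = 0.161, both from edgeR). Neither passed an FDR of 0.1. Of 2849 pairs of a named gene and a setting, 156 changed sign, all with an estimate within 1 SE of 0. The cause of these differences was not tested.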

Other observations

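Of the 148 genes with a mean of at least 300 CPM, 8 (5.41%) had an unadjusted p below 0.05 in late SP against LP, beside 3.49% of all tested genes. That share is near what a threshold of 0.05 passes where nothing differs. The 8 were Gh, Atp5j, Bc1, Gm33937, Lrrc17 and Akap5, and 2 genes named here after their values had been seen. Bc1, Gm33937, Lrrc17 and Akap5 moved together and may not be separate observations. Zfp369, which encodes a zinc finger protein, was at 486 ± 112 CPM in LP, 351 ± 158 at 28 weeks and 254 ± 103 at 32 weeks (SD, n = 6 each), a log2 fold change of -0.70 (SE 0.31, adjusted p = 1.00 in edgeR). Gm52697 was at 582 ± 288, 352 ± 142 and 344 ± 171 CPM (SD, n = 6 each), a log2 fold change of -0.75 (SE 0.33, adjusted p = 1.00 in edgeR), and it passed an FDR of 0.1 in 2 of the settings tried with the highest isoform.

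The filter left out 13210 genes that were read in some library. None of these (0) was read in all 6 LP libraries, so no transcript that was present throughout LP escaped the test, and 9 were read in 8 of 12 late SP libraries and in no LP library. Per3, Robo1 and Nrg1, which were called lower in late SP without the filter, were read in 1, 4 and 3 of the 18 libraries.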
